A study of Homo sapiens with 4 samples.

Results

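The regions described here are the m6A peaks of A549 cells that lie in exons outside the UTRs and were called both with and without an shRNA against YTHDF2, the cytoplasmic m6A reader that directs bound mRNA to decay. They were selected on measured values: a distinct peak of the control list counted when the authors' annotation of it began with Exon and when its exonic blocks shared at least 1 bp on the same strand with any peak of the knockdown list. Of 31057 distinct peaks in the control list, 7888 were annotated Exon, and 3209 of these, in 2501 genes, met a peak of the knockdown list. They are called shared Exon peaks below, and the other 4679 are called shNC-only Exon peaks.

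A549 is a human lung adenocarcinoma line. The cells carried a lentiviral control vector (shNC) or the lentiviral YTHDF2 shRNA shY2-2 as stable lines, and each line yielded an input library (fragmented poly(A) RNA) and a library pulled down with an m6A antibody (IP), all strand-specific. Each of these 4 libraries is unreplicated, so values of shNC and shY2-2 are set side by side without a p-value. YTHDF2 itself was listed at an FPKM (fragments scaled to exon length and to the mapped fragments of the library) of 3.56 in shNC and 1.02 in shY2-2, a log2 ratio of -1.18 with 1 added to each value, and held no shared Exon peak.

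N6-methyladenosine is written into nascent RNA by the METTL3-METTL14 complex, with a preference for an A inside a short motif that contains GGAC. The mark is known to gather near stop codons, in 3′ UTRs and in unusually long internal exons, while the short exons that make up most coding sequence carry little of it, because the exon junction complexes placed near splice junctions keep the writer away. Exon peaks outside UTRs therefore take in coding sequence as well as the exons of long noncoding RNAs, of pseudogenes and of alternative transcripts.

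Sequences are shown for the shared Exon peaks with the highest fold enrichment in both conditions, to show the motif in its context. The order is by fold enrichment and not by FDR, which was 0.000891 for PRMT1 and 0.000661 for WASH5P in shNC. Fold enrichment is the authors' linear ratio of IP over input in a peak, and FDR its false discovery rate. The 10 genes whose peak had the highest lower value of the pair, with an FDR of at most 0.001 in both lists, were NEAT1, H19, MLPH, LINC01106, LINC01123, LINC02076, PALM3, PRMT1, WASH5P and HK1. GGAC was present in the peaks of 6 of them and absent from those of MLPH, LINC01106, LINC01123 and LINC02076. The 30 bases around the GGAC closest to the middle of each peak follow, 5′ to 3′ on the RNA strand of GRCh38, with each GGAC in capitals. The windows lie at chr11:65424880-65424909 (+) in NEAT1, chr11:1997403-1997432 (-) in H19, chr19:14054379-14054408 (-) in PALM3, chr19:49685820-49685849 (+) in PRMT1, chr19:63630-63659 (-) in WASH5P and chr10:69392263-69392292 (+) in HK1.
NEAT1: gacggggagaaggGGACagcttggcaccgg
H19: agcgggcaggtgaGGACcccatctgccggg
PALM3: gaggaaaagccagGGACagggagggatgaa
PRMT1: ttctaggaggtctGGACagagttagggtgg
WASH5P: acctgaagctctgGGACtaagcctgcgaga
HK1: acgacagactggtGGACgaatattccctaa

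The first 10 were mostly noncoding, so the strongest peaks with their midpoint in coding sequence were added after the values had been seen. They lay in PALM3 and HK1 again and in GSPT1, TRA2A, PRRC2A, MT-ND3, EWSR1, RPS24, SMG6 and KHNYN. No GGAC was present in the peaks of GSPT1, TRA2A and MT-ND3. The windows of the other 5 lie at chr6:31631779-31631808 (+) in PRRC2A, chr22:29288757-29288786 (+) in EWSR1, chr10:78037257-78037286 (+) in RPS24, chr17:2300292-2300321 (-) in SMG6 and chr14:24431969-24431998 (+) in KHNYN.
PRRC2A: aggggttttcgggGGACctatgggGGACga
EWSR1: tgggcggggaggaGGACgcggtggaatggg
RPS24: aagaaagtcagggGGACtgcaaaggccaat
SMG6: gatctatcagcctGGACgacgtttgcagac
KHNYN: cactggatctatgGGACccggagattgcag

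Shared Exon peaks made up 40.7% of the shNC Exon peaks (95% Wilson interval 39.6 to 41.8). Over all shNC peaks, 55.9% met a shY2-2 peak, and the share was 61.0% of 18357 3′ UTR peaks and 61.4% of 4812 5′ UTR peaks. Since the overlap is the rule itself, these shares only describe the lists. Intervals on shares cover the counting of peaks only, and peaks of the same gene are not independent. A single shY2-2 peak was met by 2836 shared Exon peaks, 331 met 2, and the largest number was 5. The best-overlapping partner was itself annotated Exon in 2897 cases, 3′ UTR in 179 and 5′ UTR in 133. The median shared Exon peak had 75.0% of its length inside its best partner, and 987 lay in it whole.

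The rule admits very small overlaps. There were 76 shared Exon peaks with under 10 nt in common with the shY2-2 list, among them peaks of PLEC, VIRMA and CTBP1-AS2 with 1 nt. On the other side of the threshold, 2 shNC-only Exon peaks had a shY2-2 block within 10 nt, in VPS4A at 1 nt and in ZNF17 at 4 nt. Their fold enrichments in shNC were 2.42 and 2.10, against 1.19 in PLEC and 1.43 in VIRMA just inside. Of the 3209, 227 overlapped another shared Exon peak, and joining these left 3090 separate loci.

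Against the canonical transcripts of GENCODE release 44, the label held for most peaks of coding genes by overlap. Of 2625 shared Exon peaks in genes with a coding canonical transcript, 2214 (84.3%, 82.9 to 85.7) overlapped its coding sequence, 33 its 3′ UTR and 3 its 5′ UTR, while 381 had no part in that transcript. By the midpoint of the peak, 1802 of the 3209 lay in coding sequence (56.2%), 790 in coding genes but outside the canonical transcript (24.6%), 342 in lncRNA genes (10.7%), 178 in pseudogenes (5.55%) and 33 in a canonical 3′ UTR. The remaining 64 lay in genes of other kinds or in genes not found in the release. The shNC-only Exon peaks divided alike, with 57.0% in coding sequence, 26.5% outside the canonical transcript and 9.83% in lncRNA genes.

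The exons hit varied widely in length. The exon named in the annotation, or, where it could not be looked up on the strand of the peak, the best-overlapping canonical exon, was found for 3068 shared Exon peaks. Its median length was 361 nt (95% order-statistic interval 306 to 403), with quartiles of 138 and 1472 nt and a range from 23 to 22743 nt. It was at least 400 nt in 1483 (48.3%, 46.6 to 50.1), at least 1000 nt in 971 (31.6%) and under 200 nt in 1229 (40.1%). The exons hit by shNC-only Exon peaks had a median of 303 nt (275 to 334), and 46.0% (44.5 to 47.5) were at least 400 nt. The difference of 2.34 percentage points had an interval of 0.0435 to 4.65 (Newcombe). The peak itself reached past the named exon in many cases: a median of 82.4% of its length was inside that exon, and 45.6% of peaks lay in it whole.

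**Figure D1:**
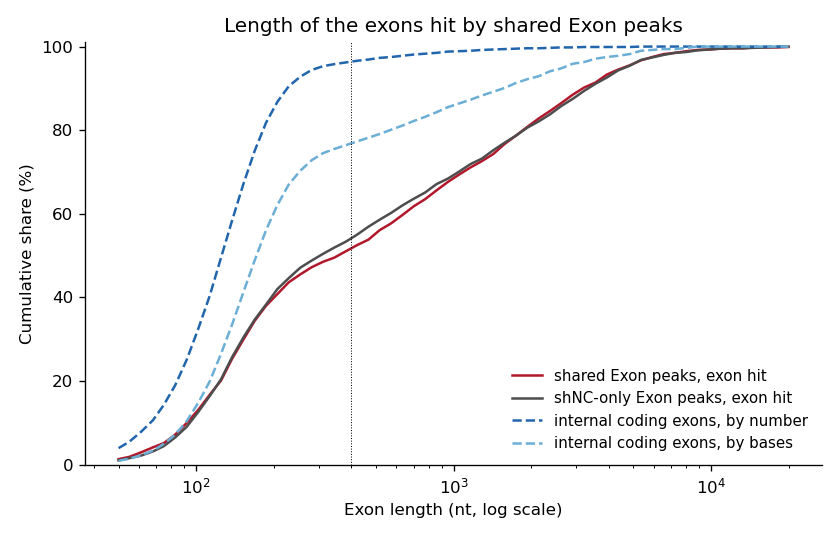
Cumulative share (%) against exon length (nt, log scale) for the exons hit by shared Exon peaks and by shNC-only Exon peaks, and for all internal coding exons of genes with a shared Exon peak in coding sequence, by number of exons and by number of bases. The dotted line marks 400 nt, a length reached by 48.3% of the exons hit by shared Exon peaks, last and single exons included, and by 27.5% of the internal exons hit. Of the internal coding exons 3.57% reach it, with 23.1% of the bases.

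Exon length went with the position of the exon in its transcript. Internal exons were hit by 1846 shared Exon peaks and had a median of 165 nt, last exons by 661 with 2019 nt, first exons by 320 with 509 nt, and single-exon transcripts by 241 with 1384 nt. Among internal exons, 27.5% (25.5 to 29.5) reached 400 nt under shared Exon peaks and 22.7% (21.2 to 24.4) under shNC-only Exon peaks. Among last exons the shares were 87.0% and 87.6%. The first exons under shared Exon peaks reached 400 nt in 56.6%, against 64.2% under shNC-only Exon peaks.

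The longest exons hit belonged to NEAT1, the lncRNA AC020916.1, AHNAK, ZNF891 and GABPB1-AS1. The NEAT1 exon of 22743 nt is the unspliced long transcript that builds the paraspeckle, a nuclear body. The AC020916.1 exon is 19049 nt long, and its peak had a fold enrichment of 6.10 in shNC and 18.5 in shY2-2. AHNAK, which encodes a giant scaffold protein, was hit in its last exon of 18173 nt by a peak with a fold enrichment of 1.37 in shNC and 1.25 in shY2-2. The last exon of ZNF891, a zinc finger gene, is 17246 nt long, and its peak had a fold enrichment of 7.63 and 3.01. The exon of the antisense lncRNA GABPB1-AS1 is 16103 nt long and its peak stood at 11.4 and 16.2. The FDR in shNC and shY2-2 was 0.124 and 0.245 for the ZNF891 peak, whose gene had an FPKM of 0.259 and 0.236. It was 0.0468 and 0.000708 for AC020916.1, 0.0214 and 0.00363 for GABPB1-AS1 and 7.24e-05 and 0.0813 for AHNAK. The NEAT1 peak had 1.00e-23 and 1.00e-141.

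Within coding sequence, exon length could be read free of the annotation string by taking the canonical exon that holds the midpoint. The midpoint was in an internal exon for 1344 shared and 2098 shNC-only Exon peaks. Exons of at least 400 nt took 475 of the 1344 (35.3%) and 25.5% of the shNC-only Exon peaks. For bases, only internal exons wholly inside the coding sequence of genes with a shared Exon peak there were counted. Of these 15891 exons, 568 were at least 400 nt long and held 23.1% of the bases. Peaks were also counted in internal exons that hold the start or stop codon. The shares of peaks and of bases therefore rest on unlike sets of exons, and how much this adds to their gap was not tested. Exons of 400 to under 1000 nt had 18.8% of shared Exon peaks on 9.15% of the bases, and exons of 1000 nt or more had 16.6% on 14.0%. Exons under 200 nt had 51.9% on 60.1%.

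**Figure D2:**
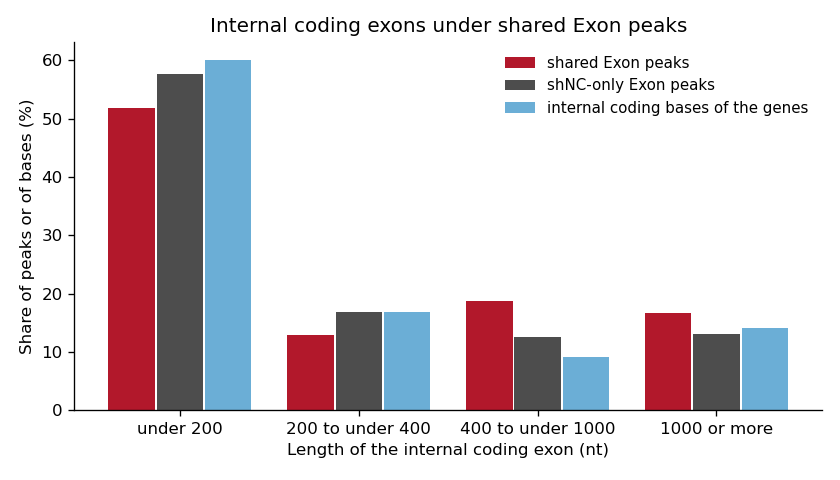
Share (%) of shared Exon peaks, of shNC-only Exon peaks and of internal coding bases that fall in internal coding exons of each length class (nt). Exons of 400 to under 1000 nt hold 18.8% of the shared Exon peaks, 12.5% of the shNC-only Exon peaks and 9.15% of the bases. The bases are those of exons wholly inside the coding sequence, while the peaks also include internal exons with the start or stop codon.

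Seen the other way, 47.0% (43.9 to 50.1) of the Exon peaks in internal coding exons of at least 400 nt met a shY2-2 peak, against 35.7% (33.9 to 37.7) of those in shorter exons, a difference of 11.2 percentage points (7.62 to 14.8). Peak length moved with this: shared Exon peaks in the longer exons had a median of 329 nt and those in the shorter exons 270 nt, while the shNC-only Exon peaks had 210 and 181 nt. The level of the gene ran the other way across exon lengths, since the host genes of shared Exon peaks had a median shNC FPKM of 6.01 for the longer exons and 13.0 for the shorter, against 4.16 and 6.47 for shNC-only Exon peaks. In both classes of exon the shared Exon peaks were in genes of higher FPKM. The part of peak length and of RNA level in the difference was not tested. Median fold enrichments of shared Exon peaks were 1.91 in shNC and 1.78 in shY2-2 in the longer exons and 1.61 and 1.57 in the shorter.

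Inside the internal coding exons of at least 400 nt, the midpoint of the shared Exon peak was within 100 nt of a junction in 44 of 475 (9.26%, 6.97 to 12.2), where 14.4% of the bases of those exons lie, and the median distance to the nearest junction was 273 nt. For shNC-only Exon peaks the share was 13.6% (11.0 to 16.8) against 12.9% of bases, with a median distance of 250 nt. A peak that lies whole in its exon has its midpoint away from the junctions, the more so the longer it is, and the shared Exon peaks here were the longer ones (329 against 210 nt), so these shares of midpoints cannot be read against the shares of bases. Along the whole coding sequence, 5 equal parts from start to stop held 216, 367, 455, 470 and 294 of the 1802 shared Exon peaks.

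Motif matches were counted in the reference sequence of the joined exonic blocks. GGAC was present in 2099 shared Exon peaks (65.4%, 63.7 to 67.0) and in 50.1% (48.7 to 51.5) of shNC-only Exon peaks. Its counterpart on the opposite strand, GTCC, which cannot overlap GGAC, was present in 53.5% and 42.2%. Shared Exon peaks were longer, with a median of 270 nt against 180 nt, so densities and fixed windows were compared as well. GGAC stood at 4.80 per 1000 nt in shared and 4.28 in shNC-only Exon peaks, and GTCC at 3.15 and 3.13. In the central 100 nt of peaks at least that long, GGAC was present in 36.8% of shared and 32.7% of shNC-only Exon peaks, a difference of 4.10 percentage points (1.80 to 6.41), while GTCC was present in 24.9% and 25.5%. GGACT, a longer form that contains GGAC, was present in 30.2% of shared and 19.1% of shNC-only Exon peaks.

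The motif differed by kind of gene. Peaks with their midpoint in coding sequence held 5.34 GGAC and 2.96 GTCC per 1000 nt, where the whole coding sequence of the same genes held 5.01 and 3.30. Peaks of lncRNA genes held 4.11 and 3.26, those of pseudogenes 3.86 and 3.08, and those in coding genes outside the canonical transcript 4.13 and 3.59. Shared Exon peaks with their midpoint in internal coding exons of at least 400 nt held 5.96 GGAC per 1000 nt of peak. Those with their midpoint in shorter ones held 4.53, with GTCC at 2.81 and 2.80. Around the midpoint of the coding-sequence peaks the motif was spread broadly and rose to no sharp summit: bins of 25 nt ran from 4.68 to 6.04 per 1000 nt over 200 nt to either side.

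**Figure D3:**
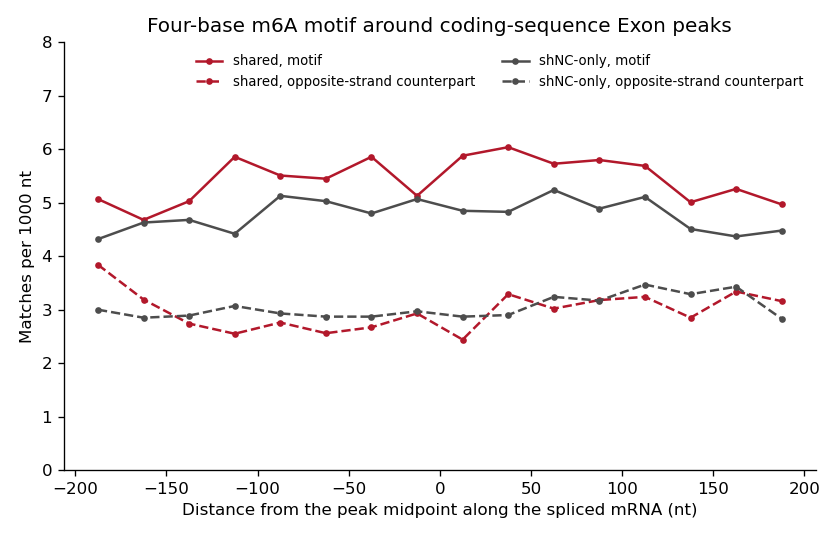
Matches per 1000 nt in bins of 25 nt against the distance (nt) from the peak midpoint along the spliced canonical mRNA, for coding-sequence peaks. Solid lines show GGAC and dashed lines GTCC, its opposite-strand counterpart, and the GGAC line of the 1802 shared Exon peaks runs between 4.68 and 6.04.

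Fold enrichment took part in the calling of both lists and is given as a description. The median over shared Exon peaks was 2.00 in shNC (1.96 to 2.03) and 1.94 for the partner in shY2-2 (1.89 to 1.99), and the median was 2.00 in shNC-only Exon peaks too. Both lists passed an FDR of at most 0.001 for 799 shared Exon peaks (24.9%). In shNC alone, 36.6% of shared and 5.71% of shNC-only Exon peaks did. Peaks in coding sequence had the lowest medians, 1.75 in shNC and 1.72 in shY2-2. Peaks outside the canonical transcript stood at 2.17 and 2.20, lncRNA peaks at 3.00 and 2.89, and pseudogene peaks at 3.22 and 2.77.

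High fold enrichment went with low RNA. Both values were at least 4 for 308 shared Exon peaks (9.60%), which took in 24.3% of the lncRNA peaks and 4.38% of the coding-sequence peaks. Their host genes had a median shNC FPKM of 1.80 (1.43 to 2.49), against 7.68 (7.35 to 8.27) for the other shared Exon peaks, and 70 of the 308 passed the FDR limit in both lists. FPKM comes from the input library, which is also the denominator of fold enrichment, so the 2 measures are not independent. Values of 4 or more also repeated from peak to peak. The 4 most frequent values in shNC (4.58, 6.10, 6.87 and 7.63) covered 193 of 539 shared Exon peaks with such a value, and 4 values in shY2-2 (4.63, 5.78, 6.94 and 8.09) covered 216 of 515. Without read counts per peak, the uncertainty of high values in weakly expressed genes could not be estimated. What sets the repeated values was not tested.

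**Figure D4:**
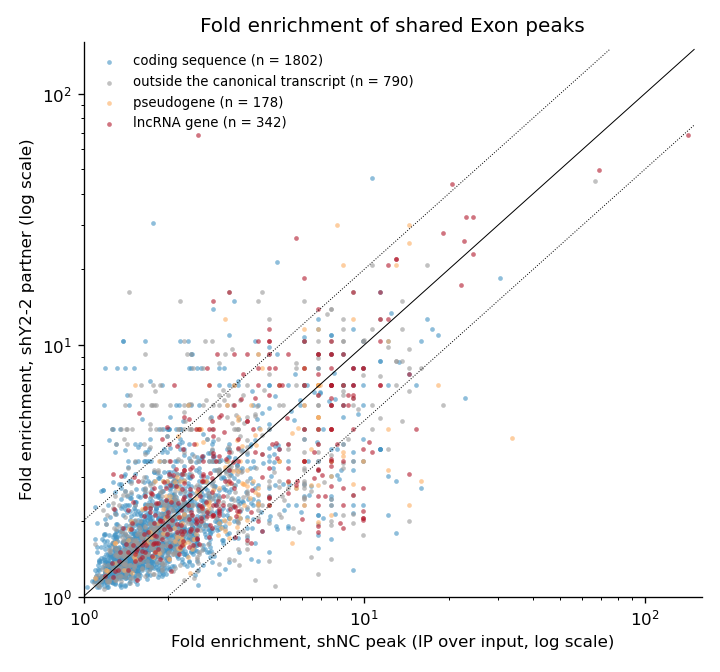
Fold enrichment of each shared Exon peak in shNC (x axis) and of its best-overlapping partner in shY2-2 (y axis), both on log scales, coloured by kind of gene. The solid line marks equal values and the dotted lines a log2 ratio of 1 and -1, and 190 peaks lie at or above the upper line and 199 at or below the lower.

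The highest values in both conditions were those of lncRNAs. NEAT1 (ENSG00000245532) held a peak of 2967 nt at chr11:65423577-65426543 with a fold enrichment of 143 in shNC and 68.4 in shY2-2. Other shNC calls inside this stretch were far lower, with 7.13 for a peak of 1129 nt listed under NEAT1_3 and 2.55 for a NEAT1 peak of 285 nt. The value of this region thus depends on the call taken. H19, an imprinted lncRNA, held a peak of 892 nt at chr11:1996969-1997860 with 68.7 and 49.7. The NEAT1 peak of 2967 nt and the H19 peak were far above the medians of lncRNA peaks. LINC01106 stood at 24.4 and 23.1, LINC01123 at 20.6 and 43.9, and LINC02076 at 19.1 and 27.8, each in an exon of 1640 to 1931 nt.

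Among coding genes, MLPH, which encodes the melanosome linker melanophilin, had 66.4 in shNC and 45.1 in shY2-2 at chr2:237518056-237520006, with a host FPKM of 21.9 and 15.9. The midpoint of this peak was outside the canonical transcript, and 15.9% of its 690 nt was in the named exon. PRMT1, the main arginine methyltransferase, had 16.8 and 20.8, also with its midpoint outside the canonical transcript and with 2.86% of the peak in the named exon. WASH5P, a subtelomeric pseudogene whose near-identical copies can share reads and whose values are therefore uncertain, had 14.5 and 30.1.

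The strongest peak in coding sequence was that of PALM3, a paralemmin gene, in its last exon of 1860 nt at chr19:14053722-14054974, with 30.5 in shNC and 18.5 in shY2-2 at an FPKM of 0.794 and 1.81. HK1, the housekeeping hexokinase, had 12.5 and 13.4 over 5 blocks. GSPT1, a translation termination factor, had 17.5 and 11.6, and TRA2A, a splicing regulator, had 18.3 and 11.0 on a peak of 418 nt. PRRC2A, an RNA-binding protein described as an m6A reader, had 13.3 and 8.53 inside an exon of 1854 nt. All 5 stood well above the coding-sequence medians in both conditions.

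SMG6, the endonuclease of nonsense-mediated decay, and KHNYN, an antiviral cofactor, were hit in long internal exons of 1759 and 1148 nt. SMG6 had 6.95 in shNC and 6.44 in shY2-2. KHNYN had 6.26 and 6.94. EWSR1, an RNA-binding protein, had 6.97 and 6.53, and the ribosomal protein gene RPS24 had 6.61 and 6.53 at an FPKM of 215 and 239. These 4 genes had nearly the same fold enrichment in the 2 conditions, with log2 ratios from -0.11 to 0.15.

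Over all shared Exon peaks the log2 ratio of fold enrichment, shY2-2 over shNC, had a median of -0.04 (-0.06 to -0.03) and quartiles of -0.34 and 0.23. It was within 0.5 of 0 for 69.4%. A ratio of at least 1 was seen for 190 (5.92%) and of at most -1 for 199 (6.20%). Among all 17354 shNC peaks with a partner the shares were 5.31% and 5.73%, so the shared Exon peaks were close to the rest, and the median of all was -0.05.

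The largest ratios among peaks past the FDR limit in both lists were those of NEAT1, PSMB7, CLINT1, LMNA and EIF3C. The NEAT1 peak in question is a stretch of 285 nt with 2.55 in shNC that lies whole inside the shNC peak of 143. Both shNC peaks have the same best partner, the shY2-2 peak of 68.4, which is 2338 nt long. The same bases therefore gave a log2 ratio of 4.75 from the short call and of -1.06 from the long one. PSMB7, a proteasome subunit, had 1.65 in shNC and 10.4 in shY2-2. CLINT1, an adaptor of clathrin coats, had 1.41 and 8.09, and LMNA, the lamin A gene, had 1.43 and 6.36. The partners of these peaks also reach past them. That of PSMB7 is 745 nt long against 596 nt and is annotated 5′ UTR. That of CLINT1 is 479 nt long against 330 nt. LMNA shared 241 of its 481 nt with a partner of 570 nt. EIF3C, which has a near-identical copy and is uncertain for that reason, had 4.88 and 21.4.

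The lowest ratios were those of AMZ2P1, ZC3H18, AL445524.1, CXXC1 and NEAT1_3. AMZ2P1, a pseudogene, had 33.6 in shNC and 4.28 in shY2-2. ZC3H18, an RNA-binding protein of nuclear RNA turnover, had 13.0 and 1.79, and CXXC1, a CpG-binding subunit of histone methyltransferase complexes, had 6.87 and 1.95. The lncRNA AL445524.1 had 9.92 and 2.70. NEAT1_3 overlies NEAT1 and shares its reads. Its peak had 7.13 and 2.11. The part shared with the partner was 240 of 300 nt in AMZ2P1, 271 of 330 in ZC3H18 and 468 of 817 in AL445524.1. In CXXC1 it was 271 of 870 nt and in NEAT1_3 624 of 1129 nt.

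Most genes held a single shared Exon peak (1968 of 2501), 411 held 2 and 122 held at least 3. PLEC, the gene of the cytolinker plectin, held the most with 8, of which 7 were in its 2 last exons of 3381 and 7243 nt. All were weak, from 1.19 to 2.26 in shNC and from 1.32 to 2.21 in shY2-2. SRCAP, a chromatin remodeler, ASXL1, a Polycomb-associated gene, and the lncRNAs JPX, CTBP1-AS2 and NEAT1 held 6 each. The 6 of SRCAP are overlapping pairs, with fold enrichments from 1.99 to 2.30 in shNC and 1.85 to 2.21 in shY2-2. Those of ASXL1 ran from 1.27 to 2.25 in shNC, with 5 of the 6 in its last exon of 4888 nt, and their partners from 1.37 to 8.09 in shY2-2, the highest being a 3′ UTR peak of 1407 nt. The JPX peaks ran from 1.91 to 6.61 in shNC and 1.69 to 3.63 in shY2-2, and those of CTBP1-AS2 from 1.78 to 3.56 and 1.64 to 3.47. Overlapping peaks joined, SRCAP, JPX and NEAT1 held 3 loci each, CTBP1-AS2 held 4, ASXL1 held 6 and PLEC held 8.

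Genes of the chosen lists were often hit in long exons. The ZNF list held every gene whose symbol starts with ZNF, including the antisense lncRNA ZNF436-AS1 and the pseudogene ZNF37BP. Its coding genes are zinc finger genes, whose finger array is usually encoded in the last exon. In this list 74 of 218 Exon peaks were shared (33.9%), in 59 genes, against 40.7% of all shNC Exon peaks. The exon hit had a median of 2824 nt and reached 400 nt in 61 of 71 cases. ZNF646 held 3 shared Exon peaks in an exon of 5456 nt, from 2.14 to 2.54 in shNC and 1.52 to 2.07 in shY2-2. ZNF337 held 4 at 2 loci, from 1.55 to 1.61 and 1.24 to 1.32.

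Of the chromatin list, 23 of 42 Exon peaks were shared (54.8%, against 40.7% of all), in 15 genes, and 20 of the 23 exons hit reached 400 nt. CHD3, a nucleosome remodeler, held peaks of 2.80 and 4.58 in shNC with partners of 2.51 and 3.63 in shY2-2. The histone methyltransferase gene SETD1B held peaks of 1.64 and 3.82 with partners of 1.75 and 3.47, and SETD1A held 1.72 and 1.80 with 1.60 for both. For DNA repair the count was 8 of 25 (32.0%, against 40.7% of all) in 5 genes, where MDC1, the scaffold that binds phosphorylated H2AX, held 3 in an exon of 1481 nt. For mitosis and centrosome it was 9 of 21 (42.9%) in 5 genes, where NUMA1, the spindle pole protein, held 3 at 2 loci, with 1.88 to 1.94 in shNC and 1.44 to 2.41 in shY2-2.

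Of the large cytoskeletal proteins, 18 of 42 Exon peaks were shared (42.9%, against 40.7% of all) in 6 genes. The desmosomal gene DSP held 3, from 1.41 to 1.62 in shNC and 1.63 to 1.94 in shY2-2, and MYH9, nonmuscle myosin, held 2 with 1.47 and 1.51 and partners of 1.43 and 1.48. Of the m6A writers, erasers and readers, 8 of 13 were shared (61.5%), in 7 genes, with a median fold enrichment of 1.92 in shNC and 1.59 in shY2-2. VIRMA, a subunit of the writer complex, held 2, with 2.11 and 1.43 in shNC and partners of 1.52 and 1.67. RBM15, which guides the writer complex, had 2.52 in shNC and 3.43 in shY2-2 in an exon of 2892 nt, ZC3H13 had 2.51 and 3.20, and the nuclear reader YTHDC1 had 2.66 and 2.40. Of the Wnt list, 10 of 22 were shared (45.5%) in 8 genes, and the coactivator BCL9L held 3 in its last and a long internal exon of 5634 and 2290 nt. In each of the 7 lists the median exon hit was at least 687 nt, while the shared Exon peaks as a whole had 361 nt. The lists were chosen with earlier results known, and other exons of their genes were not compared, so this describes the lists only. The median rests on 8 exons for DNA repair, 9 for mitosis and centrosome and 8 for the m6A genes.

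RNA of the host genes was compared by the log2 ratio of FPKM, shY2-2 over shNC, with 1 added to each value, a scale that shrinks the ratio of low genes. The 12268 genes that reached an FPKM of 1 in either input were kept. The 2213 genes with a shared Exon peak had a median of 0.03 (0.01 to 0.04), against 0.00 for all genes kept and 0.04 for the 5741 genes whose shared peaks were all in UTRs. A ratio above 1 was reached by 14 of them (0.633%), where 0.986% of all genes kept reached it, and a ratio below -1 by 36 (1.63%), where the share of all was 2.14%. Both shares were near this background. The genes with a shared Exon peak in coding sequence had a median of -0.01 (-0.03 to 0.01; n = 1428), and the 155 lncRNA genes 0.10 (0.04 to 0.20). Median shNC FPKM was 8.39 and 2.56 in these groups, and the part of the RNA level in their difference was not tested.

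**Figure D5:**
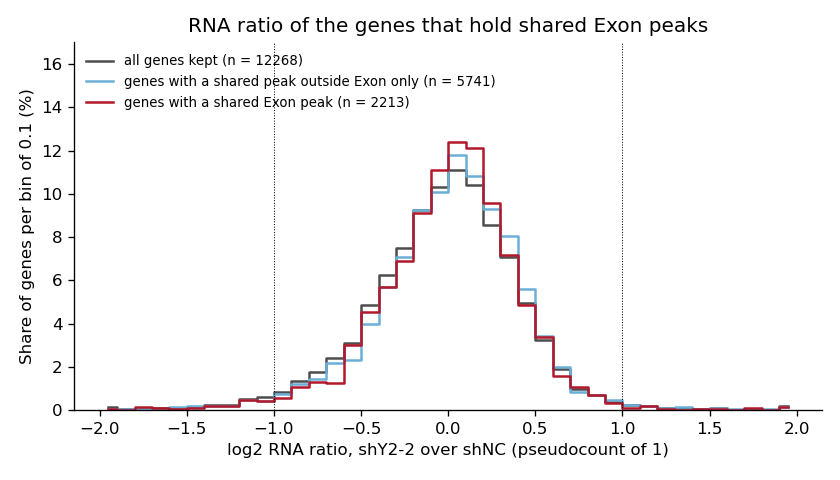
Share of genes (%) per bin of 0.1 in log2 RNA ratio, shY2-2 over shNC, for all genes kept, genes with a shared Exon peak and genes with shared peaks in UTRs only; the outermost bins hold all genes beyond them. The 3 curves lie close together, with medians of 0.00, 0.03 and 0.04, and the dotted lines mark ratios of -1 and 1.

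The highest ratios among genes with a shared Exon peak were those of NIPSNAP1, a mitochondrial protein, with an FPKM of 12.5 in shNC and 54.2 in shY2-2 (log2 ratio 2.03), and of SPATA2, an adaptor of a deubiquitinase, with 1.02 and 6.63 (1.92). HMOX1, the inducible heme oxygenase, was listed at 69.4 and 238 (1.77), and the lncRNAs LINC01273 and DANCR at 2.35 and 10.0 (1.72) and at 3.93 and 13.5 (1.55). The lowest was DAG1, the dystroglycan gene, with 17.5 and 1.06 (-3.17). TSEN15, of the tRNA splicing endonuclease, had 11.3 and 2.60 (-1.77), LBHD1 6.46 and 1.20 (-1.76), and TMEM2, a cell-surface hyaluronidase, 27.9 and 7.85 (-1.71). HSPA1B, an inducible HSP70 gene that is uncertain because HSPA1A is nearly identical, had 237 and 72.9 (-1.69).

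Of the shared Exon peaks of these genes, the 2 of DAG1, in its last exon of 4819 nt, had 1.13 and 1.31 in shNC and 1.18 and 1.22 in shY2-2. The peak of NIPSNAP1 had 1.36 and 1.31, that of SPATA2 1.68 and 1.86, and that of TMEM2 1.84 and 1.75. That of HMOX1, outside the canonical transcript, had 4.20 and 2.34, and that of HSPA1B 4.58 and 6.94. The FDR in shNC and shY2-2 was 0.00708 and 0.199 for HSPA1B and 0.262 and 0.0141 for SPATA2. For the DAG1 peaks it was 0.299 and 0.0794 (peak of 1.13) and 0.00234 and 0.0316 (peak of 1.31). The peaks of NIPSNAP1, TMEM2 and HMOX1 had at most 0.001 in both lists.

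Genes of the lists were counted against the same background of 0.986% above 1 and 2.14% below -1. None of the 33 chromatin genes kept was past either limit. Of the 265 ZNF genes kept, 3 were above and 3 below. In the DNA repair list 1 of 18 genes was below -1, in the mitosis and centrosome list 1 of 15 and among the m6A genes 1 of 18, with 0 above in each. The 1 m6A gene was YTHDF2, the target of the shRNA (-1.18). In the Wnt list 1 of 26 was above and 0 below. BCL9 of the Wnt list, with a shared Exon peak of 2.03 and 2.05 in an exon of 2242 nt, had an FPKM of 2.57 in shNC and 7.13 in shY2-2 (1.19), and MYH9 of the cytoskeletal list had 70.2 and 27.6 (-1.32). The median ratio of the 14 large cytoskeletal genes kept was -0.61, with 2 of the 14 below -1 and none above 1. Median ratios of the genes kept were -0.36 for mitosis and centrosome, -0.30 for DNA repair and -0.19 for chromatin. They were -0.11 for the m6A genes and -0.05 for the ZNF and the Wnt lists, against 0.00 for all genes kept.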

How the data were processed

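The data are 1 input and 1 m6A IP library from A549 cells with a control vector (shNC) and with an shRNA against YTHDF2 (shY2-2), grouped by their labels. Reads were mapped by the authors with HISAT2 (GRCh38), who calculated the deposited FPKM per gene from the input libraries with StringTie, called peaks with exomePeak on IP over input in each condition and annotated them with ChIPseeker. Versions of these tools are not given in the sources used here. The deposited fold enrichment is a linear ratio of IP over input, and each peak also carries a deposited p-value (at most 0.049 in both lists) and a deposited log10 FDR score. The depth behind FPKM values and peaks is unknown.

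Distinct peaks were compared by exonic blocks on the same strand (at least 1 bp). The partner was the shY2-2 peak with the most overlap. Exon lengths, coding sequence and gene types came from GENCODE release 44, and 3195 of the 3209 peaks lay in genes of that release. The annotation named an exon of another gene for 342 peaks and an exon on the opposite strand for 182. The exon hit was the named exon for 2853, a canonical exon for 215 and not found for 141. Motifs were counted in the spliced GRCh38 sequence. No count test was run, since FPKM values are not counts. Every FPKM column was matched to a sample (0 left over).

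The peaks and gene lists were chosen with earlier results of these data known. Genes were named by rule: the 10 highest lower fold enrichments, the 5 highest and 5 lowest ratios of fold enrichment (these with FDR at most 0.001 in both lists), the 5 longest exons, the genes with most peaks, the 5 highest and 5 lowest RNA ratios, and up to 4 genes of each list, of which some are printed. The 10 coding-sequence peaks, the genes of the closing section and those just outside the overlap threshold were named after their values were seen. Alternatives covered the overlap, FDR and fold enrichment limits, the choice of exon and motif, the pseudocount and the FPKM filter. The steps were tested on simulated data. Computations used Python 3.11.15, NumPy 2.4.6, pandas 2.3.3, SciPy 1.17.1, statsmodels 0.14.6, pysam 0.24.0 and matplotlib 3.10.9.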

Additional observations from a re-analysis of the deposited data

How the results depend on the processing

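Of 42 values recomputed under alternatives, 4 were added after seeing the data (1 peak per group of overlapping peaks), with values of 3090 peaks, 48.0% long exons, 65.8% with GGAC and a ratio of -0.04. The 3209 shared Exon peaks became 1873 when 50% of each peak had to overlap, 810 with an FDR of at most 0.001 in each list and 316 with a fold enrichment of at least 4 in each list. Under those 3 settings the share of exons hit of at least 400 nt went from 48.3% to 46.4%, 41.1% and 66.1%, and the share of peaks with GGAC from 65.4% to 67.5%, 75.2% and 57.3%. Overlap of at least 50% of the shNC peak gave 63.5% with GGAC. The exon share was 76.5% with the longest exon of the gene that the peak overlaps, 59.9% with a limit of 200 nt and 89.8% for peaks inside 1 exon, so the length of the exon hit depends on which exon is taken. GGAC was present in 36.8% of central 100-nt windows, GGACT in 30.2% of peaks and the reverse complement in 53.5%. The median log2 fold enrichment ratio of -0.04 became 0.01 with overlap of 50% of the shNC peak, with fold enrichment of at least 4 and when centred on all shNC peaks with a partner, so its sign depends on these settings. The median log2 RNA ratio of 0.03 became 0.08 with the FDR limit and 0.05 with fold enrichment of at least 4 or an FPKM of at least 5. By midpoint, 68.6% of peaks in coding genes lay in coding sequence, against 84.3% by any overlap. With a pseudocount of 0.1, 40 genes had an RNA ratio above 1 and 56 below -1, against 14 and 36.

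The comparison of internal coding exons kept its direction under all 4 limits on overlap, FDR and fold enrichment: 34.2% to 41.4% of shared Exon peaks were in exons of at least 400 nt, against 27.2% to 29.2% of the rest, where the main setting gave 35.3% and 25.5%. Under each limit the rest also held the shared Exon peaks that failed it, while in the main setting the rest was the shNC-only Exon peaks alone. The gap was smallest with the FDR limit (34.2% and 28.8%), and the fold enrichment limit left 58 such peaks. No paired analysis was possible because each condition has 1 library of each kind. Unknown depth limits every single value.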

Other observations

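Beyond the comparisons above, 13 of 18 mitochondrial Exon peaks were shared (72.2%, 49.1 to 87.5, against 40.7% of all shNC Exon peaks). MT-ND3, a subunit of respiratory complex I, stood highest with a fold enrichment of 7.82 in shNC and 7.74 in shY2-2 over all 346 nt of the gene, and its peak held no GGAC. MT-CO2 had 3.52 and 3.35, MT-CO3 2.95 and 2.34, and MT-CYB 2.11 and 1.75. The ribosomal RNA genes MT-RNR1 and MT-RNR2 had 1.75 and 1.61 and 1.73 and 1.45. MT-RNR2 was listed at an FPKM of 1899 and 1996.

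The exon hit belonged to a retained-intron transcript for 229 shared Exon peaks, with a median length of 1044 nt (899 to 1262) and median fold enrichments of 2.37 in shNC (2.19 to 2.73) and 2.41 in shY2-2 (2.25 to 2.78). It belonged to a nonsense-mediated decay transcript for 37, with a median of 199 nt (122 to 476). SRSF3, a splicing factor named after its value was seen, held a peak of 151 nt outside its canonical transcript with 10.0 in shNC and 10.5 in shY2-2. Of the 178 shared Exon peaks in pseudogenes, 28 were in ribosomal protein pseudogenes, whose reads can come from the parent genes.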
